A study of Mus musculus with 8 samples.

Results

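The 10 genes described here, Fos, Fosb, Jun, Junb, Jund, Egr1, Ier2, Dusp1, Zfp36 and Atf3, are immediate early genes or encode subunits of the AP-1 transcription factor. They were chosen by name and matched by symbol to the Ensembl identifiers of the count tables, which hold 41214 identifiers, and all 10 had enough counts to be tested in every comparison. Their levels are given as CPM, counts scaled to the size of the library after TMM normalization by edgeR, in all 8 libraries.

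Immediate early genes are transcribed within minutes of a stimulus from factors that the cell already holds, without new protein synthesis, and their mRNAs are short-lived. Fos and Jun family proteins pair through a leucine zipper to form AP-1, which binds DNA and sets the next wave of transcription, while Dusp1 and Zfp36 are among the products that end the response. In bone marrow (BM) these genes are expressed in many myeloid cells and are known to respond to inflammatory signals.

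RNA-seq of total BM was done for C57Bl6 mice, with 2 mice in each of 4 groups and no wild-type group. Gfi1 encodes a zinc finger repressor of transcription in blood cells. KO mice lack Gfi1, and KD mice carry a human GFI1 cDNA in place of the mouse gene together with an antisense neo cassette that lowers its expression. Young KD mice were aged 39 and 42 days and young KO mice 44 and 48 days, all without disease. The old KO mice were 101 and 158 days old and without disease, and the sick KD mice were 78 and 187 days old and are labelled as having AML, while the study's text describes a myeloproliferative neoplasm. Disease therefore comes together with age against young KD and with genotype against old KO, and these cannot be told apart. With 2 mice per group an exact permutation test cannot give a two-sided p below 0.333.

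Counts on genes per library ranged from 26642067 to 42679114. Mice of the same group differed by more than sampling noise in each of the 4 groups, the chi-square divided by its degrees of freedom lying between 23.5 and 38.8. Reads on no annotated gene made up 42.0% and 38.8% in the 2 sick KD libraries and 26.9% to 33.8% in the other 6. Alignments that were not unique numbered 45056950 and 56501078 in sick KD, beside 26642067 and 30139409 counts on genes. In the other 6 libraries they numbered 29299324 to 47000865, beside 27515379 to 42679114 counts on genes. The targeted gene Gfi1 had 5.49 and 7.15 CPM in the libraries labelled sick KD, 6.17 and 7.03 CPM in young KD, 14.0 and 14.4 CPM in young KO, and 13.3 and 29.7 CPM in old KO. It was thus higher in the libraries labelled KO. Counts on the mouse gene are no clean measure of GFI1 from the human cDNA or of a deleted allele, and each direction between KO and KD rests on the labels. All 16 neutrophil and all 15 monocyte and macrophage markers of the lists used were detected in every library.

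The promoters of the 4 genes that differed most between mice of the same group, Fos, Fosb, Jun and Dusp1, are shown first, with those of Zfp36 and Atf3, which differed less, for comparison. Each is the 250 bases before the RefSeq transcription start on GRCm38.p6, read 5′ to 3′ on the strand of the gene. They lie at chr12:85473640-85473889 for Fos (plus strand), chr7:19310046-19310295 for Fosb, chr4:95052223-95052472 for Jun, chr17:26508473-26508722 for Dusp1, chr7:28379229-28379478 for Zfp36 and chr1:191183334-191183583 for Atf3 (all minus strand). Capitals mark matches, on either strand, to TGACG, the core of the site of ATF and CREB proteins, to TGANNTCA, its 8-base form, to TGANTCA, the AP-1 site, or to the CArG box bound by serum response factor.
Fos: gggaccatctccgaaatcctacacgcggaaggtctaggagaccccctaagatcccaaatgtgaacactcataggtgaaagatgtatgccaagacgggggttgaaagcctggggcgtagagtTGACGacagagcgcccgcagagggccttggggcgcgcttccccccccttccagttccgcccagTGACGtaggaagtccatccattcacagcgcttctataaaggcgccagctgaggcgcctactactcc
Fosb: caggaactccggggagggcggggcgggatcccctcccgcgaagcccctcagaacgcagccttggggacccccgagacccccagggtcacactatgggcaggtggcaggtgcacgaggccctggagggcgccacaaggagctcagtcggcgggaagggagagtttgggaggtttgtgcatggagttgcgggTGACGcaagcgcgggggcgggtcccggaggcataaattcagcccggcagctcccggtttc
Jun: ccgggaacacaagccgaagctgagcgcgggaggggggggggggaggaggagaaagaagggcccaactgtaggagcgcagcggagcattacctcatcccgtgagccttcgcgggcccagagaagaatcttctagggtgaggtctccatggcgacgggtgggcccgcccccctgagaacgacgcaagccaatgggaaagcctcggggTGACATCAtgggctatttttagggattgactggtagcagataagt
Dusp1: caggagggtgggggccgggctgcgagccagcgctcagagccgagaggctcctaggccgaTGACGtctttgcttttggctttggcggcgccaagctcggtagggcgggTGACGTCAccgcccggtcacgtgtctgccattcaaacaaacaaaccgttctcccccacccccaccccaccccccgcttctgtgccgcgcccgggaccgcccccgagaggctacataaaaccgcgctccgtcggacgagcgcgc
Zfp36: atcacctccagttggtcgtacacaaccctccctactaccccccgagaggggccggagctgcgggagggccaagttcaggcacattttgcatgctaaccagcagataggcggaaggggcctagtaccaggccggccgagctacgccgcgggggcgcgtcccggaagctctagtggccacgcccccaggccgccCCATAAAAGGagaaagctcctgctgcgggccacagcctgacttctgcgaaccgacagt
Atf3: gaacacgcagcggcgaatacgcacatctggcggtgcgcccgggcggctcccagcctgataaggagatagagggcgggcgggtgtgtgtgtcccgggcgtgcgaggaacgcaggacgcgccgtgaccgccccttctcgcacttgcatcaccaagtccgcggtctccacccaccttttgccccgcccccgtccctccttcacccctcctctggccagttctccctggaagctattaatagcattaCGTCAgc

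Of the 10 genes, 8 were found in the RefSeq promoter table. TGACG was found in the Fos promoter at -129 and -66 from the start, in the Fosb promoter at -60 and in the Atf3 promoter at -7, where it lies on the other strand. The Dusp1 promoter held it at -191, -143 and -140, and the last pair overlap in the TGANNTCA match at -143. TGANNTCA was found at -45 in Jun, and the CArG box at -58 in Zfp36. Of the promoters not printed, that of Jund held TGANNTCA at -61 and that of Junb TGACG at -106, both counted from a RefSeq start whose following bases were not found in a GENCODE transcript of the gene. No TGANTCA was found in any of the 8 windows. Only the 250 bases before each start were searched, so a site of any of these motifs farther away would be missed. Of all 32851 promoters of the same length, 17.8% held TGACG, 11.9% TGANNTCA, 6.75% TGANTCA and 1.47% the CArG box, and none of these matches shows that a factor binds there.

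Fos and Fosb differed more between mice of the same group than between groups. Fos, the main partner of Jun proteins in AP-1 (chromosome 12 from 85473890 to 85477273, plus strand), reached 212 and 42.6 CPM in the young KD mice of 39 and 42 days, and 153 and 47.3 CPM in the young KO mice of 44 and 48 days. It was at 181 and 85.9 CPM in the old KO mice of 101 and 158 days, and at 101 and 97.0 CPM in the sick KD mice of 78 and 187 days. The highest and the lowest of the 8 values were thus both young KD mice, 4.98-fold apart, and every pair of groups overlapped. Fosb, a paralog induced like Fos (chromosome 7 from 19302696 to 19310051, minus strand), was at 6.99 and 1.21 CPM in young KD, 5.91 and 0.772 CPM in young KO, 8.14 and 1.55 CPM in old KO and 1.81 and 1.17 CPM in sick KD, the younger mouse first in each. In young KO this was a 7.65-fold difference between 194 and 34 counts. Both sick KD mice lay near the low mice of the other groups for Fosb, and between the high and the low mice for Fos.

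**Figure D1:**
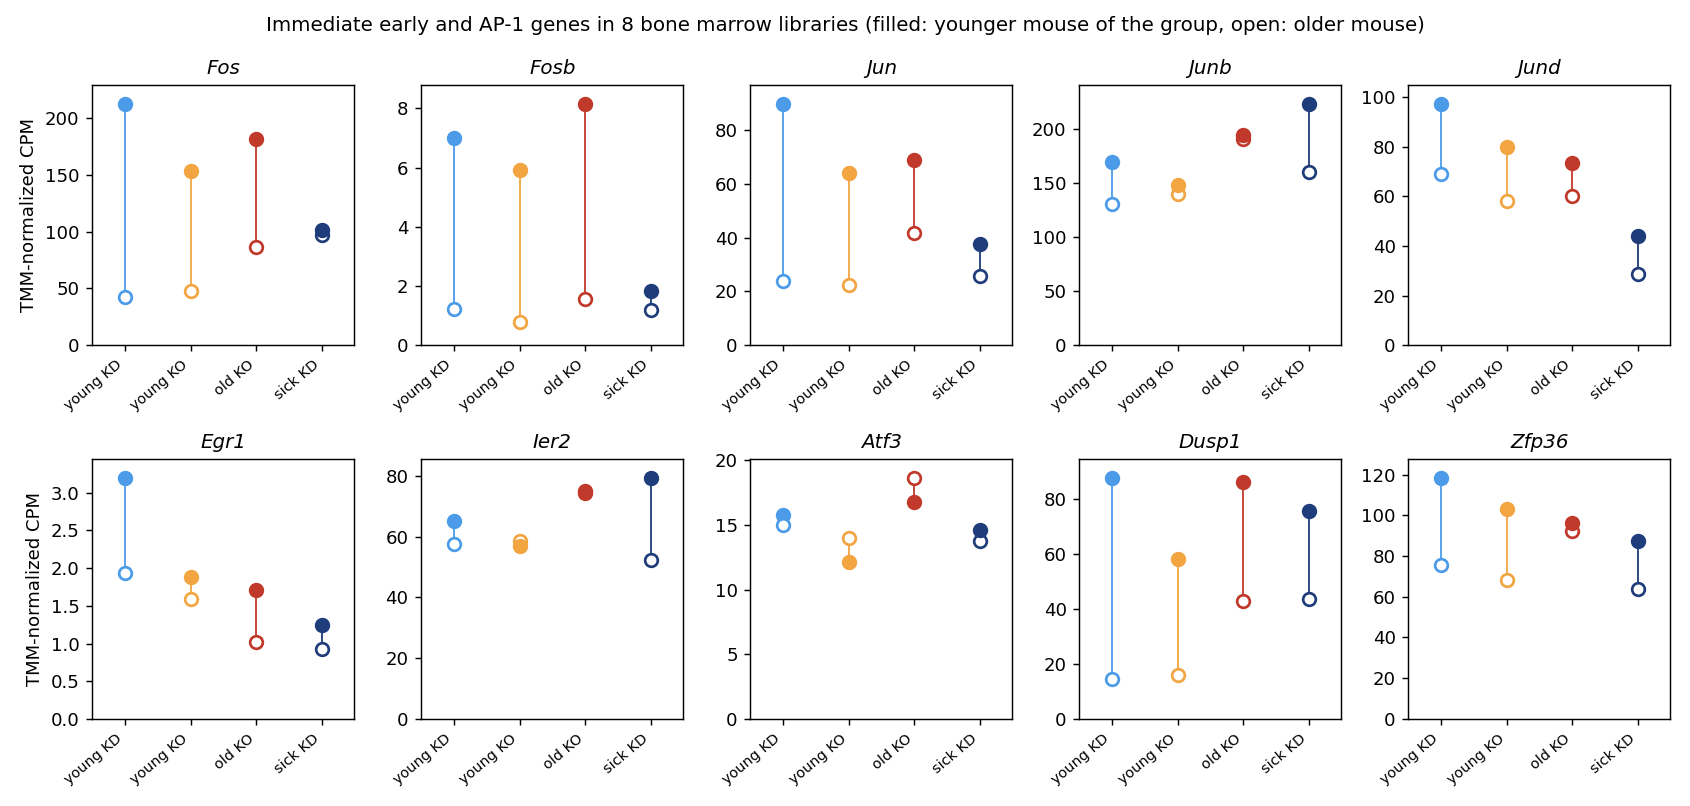
TMM-normalized CPM of the 10 genes (vertical axes, from 0) in the 4 groups (horizontal axes), where each point is 1 mouse, filled for the younger and open for the older mouse of its group, and lines join the 2 mice. Fos, Fosb, Jun and Dusp1 span most of their range within the young KD group, where Fos lies at 212 and 42.6 CPM, while Jund is lowest in both sick KD mice at 28.5 and 44.2 CPM.

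Jun followed Fos. Jun, which pairs with Fos proteins or with itself (chromosome 4 from 95049034 to 95052222, minus strand), was at 89.5 and 24.0 CPM in young KD, 64.1 and 22.2 CPM in young KO, 68.8 and 41.6 CPM in old KO and 37.6 and 25.7 CPM in sick KD, again with the younger mouse first. Each young group held both a high and a low mouse, 3.73-fold apart in young KD and 2.89-fold in young KO. Both old KO mice were above both sick KD mice, the only pair of groups without overlap for Jun. Junb, a Jun family member with weaker activating function (chromosome 8 from 84974484 to 84978718), varied far less, between 131 CPM in a young KD mouse and 223 CPM in a sick KD mouse, and the mice of a group were 1.02- to 1.39-fold apart. The strand setting of the counting is not given in the sources used here, and Jun, Junb and Jund each overlap a gene on the other strand, so their counts could include reads of Junos, Prdx2 or Gm11175.

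Jund, the Jun family member that is usually expressed without a stimulus (chromosome 8 from 70698949 to 70700616, plus strand), had a pattern of its own. It was at 97.2 and 68.9 CPM in young KD, 79.9 and 58.2 CPM in young KO, 73.4 and 60.2 CPM in old KO, and 44.2 and 28.5 CPM in sick KD. Both sick KD mice were below all 6 other mice, and the other 3 groups overlapped. The level was 36.3 ± 11.04 CPM (SD, n = 2 mice) in sick KD and 83.1 ± 20.02 CPM (SD, n = 2) in young KD.

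Of the remaining transcription factors, Atf3, a stress-induced partner of Jun proteins that often represses (chromosome 1 from 191170296 to 191218039), varied least within groups. It was at 15.8 and 15.0 CPM in young KD, 12.1 and 14.0 CPM in young KO, 16.7 and 18.6 CPM in old KO and 14.6 and 13.7 CPM in sick KD. The mice of a group were 1.05- to 1.16-fold apart, with both old KO mice above all others and both young KD mice above the young KO and sick KD mice, which overlapped. Egr1, a zinc finger factor induced by serum, had few counts, from 23 in a sick KD mouse to 129 in a young KD mouse. Its levels were 3.20 and 1.93 CPM in young KD, 1.89 and 1.59 CPM in young KO, 1.71 and 1.02 CPM in old KO and 1.24 and 0.928 CPM in sick KD, so that both sick KD mice were below both young KD mice. Ier2, a nuclear protein encoded by a single-exon gene on chromosome 8 (84661331 to 84662852), stayed between 52.4 and 79.3 CPM, and both of these extremes were sick KD mice.

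Of the genes that end the response, Dusp1, a phosphatase that inactivates MAP kinases (chromosome 17, annotated from 26505590 to 26562128 and overlapped there by Ergic1 on the other strand), was 5.98-fold apart between the young KD mice, the largest difference in that group. It was at 87.8 and 14.7 CPM in young KD, 58.4 and 15.9 CPM in young KO, 86.5 and 43.1 CPM in old KO and 75.6 and 43.8 CPM in sick KD. The low mouse of each young group was below all 6 other mice, while the old and the sick mice shared the same range. Zfp36, an RNA-binding protein that directs mRNA decay (chromosome 7 from 28376784 to 28380253), moved the same way but less. It ranged from 63.9 CPM in a sick KD mouse to 118 CPM in a young KD mouse, and was 1.57-fold apart between the young KD mice and 1.51-fold between the young KO mice. Levels were also set on the length of the joined exons of all annotated transcripts of a gene. For Dusp1 this is 3311 bases, against 1990 for 1 transcript, so these levels depend on the length used. At mean RPKM (CPM per kilobase of these exons), Junb was highest at 73.7, followed by Fos at 48.9 and Ier2 at 42.6. Next came Jund at 38.3, Zfp36 at 25.4, Dusp1 at 16.1, Jun at 14.6 and Atf3 at 7.002. Fosb at 0.552 and Egr1 at 0.377 were lowest. The ranges over the 8 libraries overlapped between neighbours in this order, except that Fosb reached only 1.30 RPKM where Atf3 was never below 5.63 RPKM.

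The spread between mice was then set against that of all genes. The share of the variance of log2(CPM + 1) that lay between the 2 mice of a group was 93.6% for Fos, 83.8% for Fosb, 82.8% for Jun, 80.1% for Dusp1 and 76.3% for Zfp36, and the median over the 15102 genes tested in all 8 libraries was 30.7%. It was lower for Ier2 at 56.7% and Junb at 38.6%, and below that median for Egr1 at 29.0%, Jund at 22.0% and Atf3 at 16.2%. On the log2(CPM + 1) scale, which understates the difference of genes with low CPM such as Fosb, 4 of the 10 genes were over 2-fold apart between the young KD mice, where 0.927% of all genes were, and 4 between the young KO mice, where 0.94% were. These were Fos, Fosb, Jun and Dusp1 in both groups. In old KO 2 of the 10, Fos and Fosb, were over 2-fold apart, against 1.21% of all genes, and in sick KD none, against 1.28%. Between the young KD mice, Dusp1 was farther apart than 99.98% of all genes and Fos than 99.96%, allowing for ties.

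**Figure D2:**
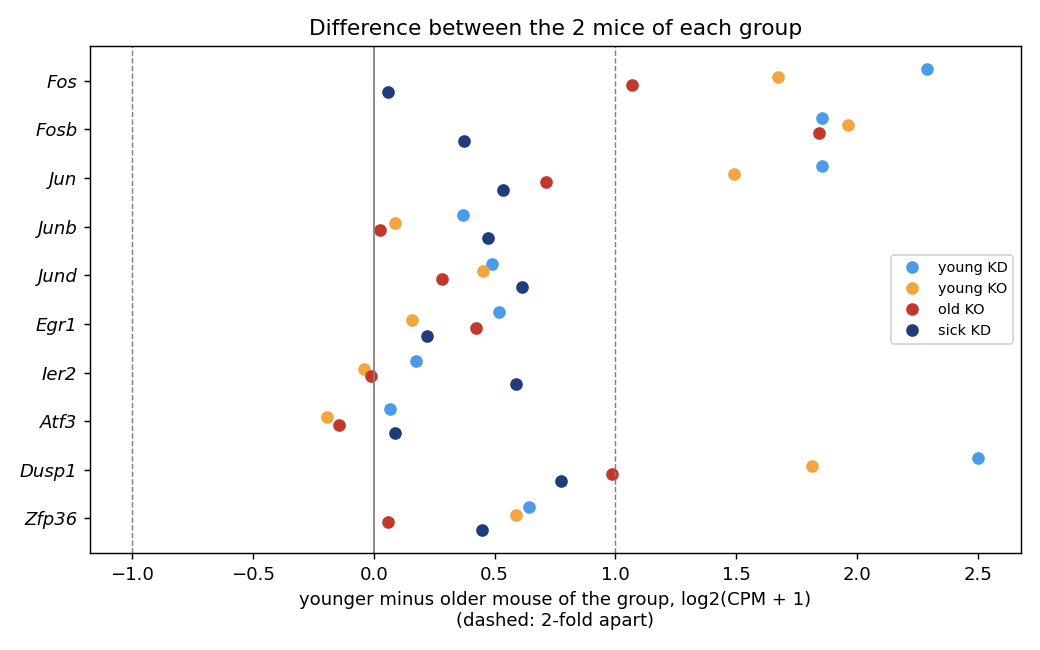
Difference in log2(CPM + 1) between the younger and the older mouse of each group (horizontal axis) for the 10 genes (vertical axis), 1 point per group, with dashed lines at 2-fold. Fos, Fosb, Jun and Dusp1 lie beyond the right dashed line in both young groups, and no gene lies beyond the left one.

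The high mouse was the younger mouse of its group in each of the 4 groups for 8 of the 10 genes, all but Ier2 and Atf3, and 7.84% of all genes had this direction in the 4 groups. Some of these differences were small, such as 1.02-fold for Junb and 1.04-fold for Zfp36 in old KO, and 1.04-fold for Fos in sick KD. The 10 genes were also measured in the same 8 mice and are not independent. In the young groups the 2 mice of a group differ in age by only a few days, at 39 against 42 and 44 against 48 days. Other genes moved between the same mice. All 8 megakaryocyte and platelet markers were over 2-fold higher in the older mouse of each young group, in which Fos was low, with summed levels of 429 against 171 CPM in young KD and 462 against 115 CPM in young KO. Their sum was also higher in the older mouse of the other groups, at 349 against 219 CPM in old KO and 257 against 138 CPM in sick KD. Erythroid markers went the other way in young mice, where 8 of 11 in young KD and 7 of 11 in young KO were over 2-fold higher in the younger mouse, with sums of 5472 against 2179 CPM and 4643 against 2032 CPM. In old KO the erythroid sum was 3992 CPM in the younger mouse and 6290 CPM in the older, and in sick KD 1326 and 901 CPM. Between the sick KD mice, 6 of 8 B cell markers were over 2-fold higher in the younger and 7 of 16 neutrophil markers in the older. Of all genes, 1.28% were over 2-fold apart there. The part of these cell types in the spread of Fos, Jun and Dusp1 was not tested. In total BM a change in the number of cells of a type and a change of RNA per cell cannot be told apart.

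**Figure D3:**
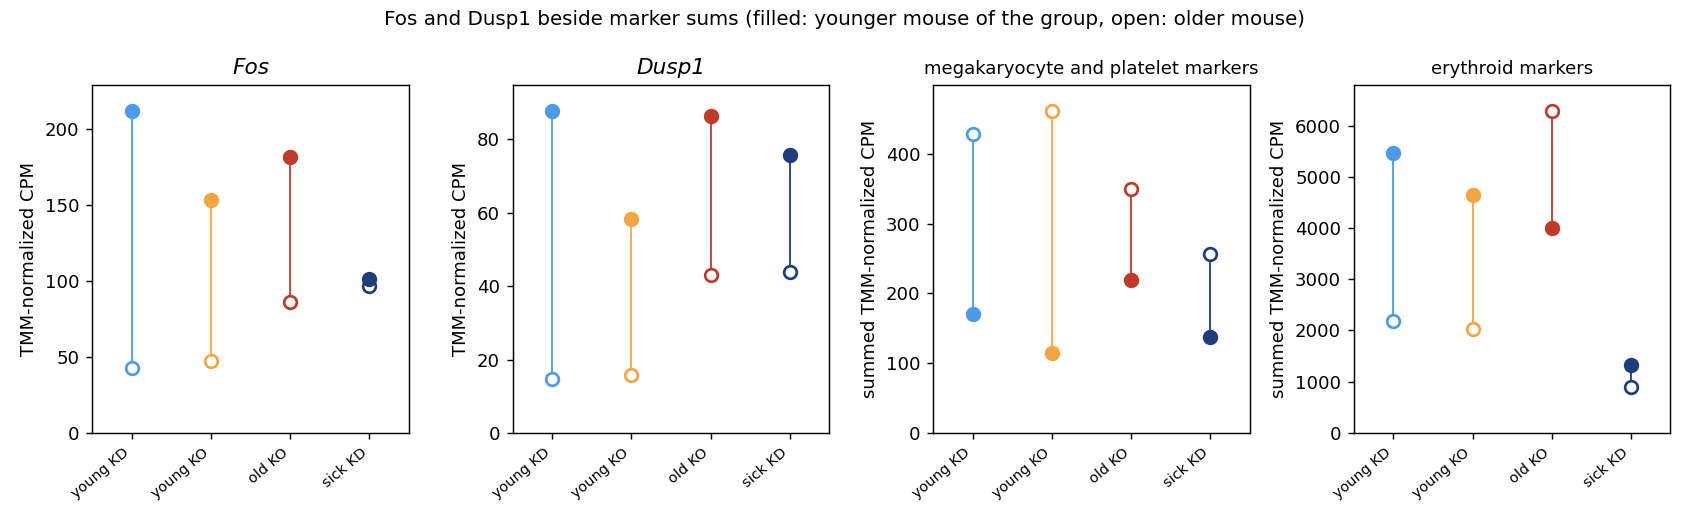
Fos and Dusp1 in TMM-normalized CPM (2 left panels) and summed CPM of 8 megakaryocyte and platelet markers and of 11 erythroid markers (2 right panels) by group, 1 point per mouse, filled for the younger and open for the older mouse of the group. In both young groups the younger mouse has higher Fos, the lower megakaryocyte and platelet sum, 171 against 429 CPM in young KD, and the higher erythroid sum, 5472 against 2179 CPM.

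To find other genes with the same course, protein-coding genes with a mean of at least 5 CPM were ranked by the root-mean-square difference of their centred log2(CPM + 1) from the mean of the 10 genes over the 8 libraries. The nearest of 9917 genes were Cd14, the co-receptor for lipopolysaccharide, at 0.156, Trib1, a pseudokinase, at 0.170, the kinase gene Dyrk3 at 0.193, the heat shock co-chaperone gene Dnajb1 at 0.200 and Nfkbia, which encodes the inhibitor of NF-kB that NF-kB itself induces, at 0.211. Cd14 was at 54.1 and 23.2 CPM in young KD, 44.1 and 29.1 CPM in young KO, 54.2 and 30.7 CPM in old KO and 38.3 and 33.4 CPM in sick KD, the younger mouse first. Trib1 was at 26.5 and 9.77 CPM in young KD and at 20.6 and 8.13 CPM in young KO. Zfp36 was the nearest to the mean among the 10 genes themselves, at 0.183, and Dusp1 the farthest, at 0.609.

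**Figure D4:**
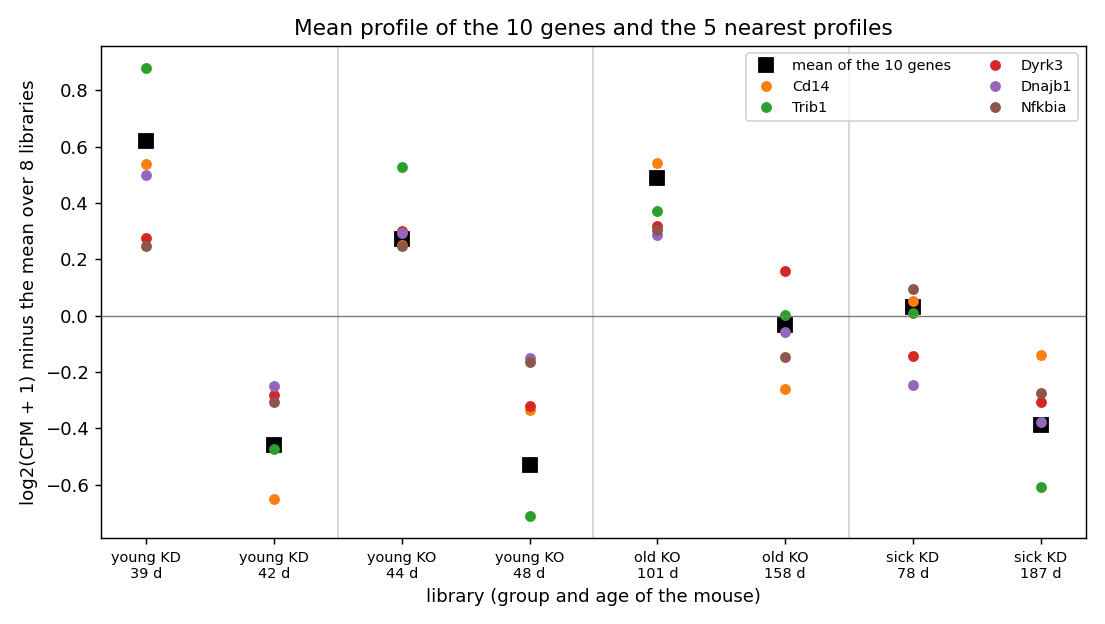
log2(CPM + 1) minus its mean over the 8 libraries (vertical axis) by library (horizontal axis, group and age in days) for the mean of the 10 genes (squares) and the 5 genes with the nearest profile (circles). The mean of the 10 genes runs from -0.53 in the young KO mouse of 48 days to 0.62 in the young KD mouse of 39 days.

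Young KO and young KD mice were compared to ask what loss of Gfi1 changes against low Gfi1 before disease. By the quasi-likelihood test of edgeR, none of the 10 genes had a Benjamini-Hochberg adjusted p under 0.05, none was under 0.05 before adjustment, and none passed with DESeq2, in a comparison in which 0.0404% of all genes passed. The log2 fold changes of all 10 were negative, with a median of -0.30 against -0.01 for all genes, but the 10 genes were measured in the same 4 mice and are not independent. For Fos it was -0.35 (standard error, SE, 0.80) and for Dusp1 -0.48 (SE 0.88), and a 2-fold difference could not be told from the spread between mice at these errors. With 1 mouse left out at a time, Fos ranged from -1.44 to 1.23 and Dusp1 from -1.70 to 1.33. Only Egr1, with a log2 fold change of -0.57 (SE 0.31), and Atf3, with -0.24 (SE 0.12), did not overlap between the groups, and 27% of all genes did not.

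Old KO and sick KD mice were compared as the age-matched healthy and diseased animals of the study. Jund was higher in old KO by 0.88 on the log2 scale (SE 0.21, edgeR adjusted p = 0.0331), and was the only 1 of the 10 genes to pass, where 18.1% of all genes did. The call was lost without the sick KD mouse of 187 days (log2 fold change 0.60, edgeR adjusted p = 0.0658). Jun was at 0.81 (edgeR adjusted p = 0.0797) and passed with DESeq2 (adjusted p = 0.0167), and Fosb was at 1.71 (edgeR adjusted p = 0.133). The median of the 10 genes was 0.33, and 4 of them, Jun, Jund, Zfp36 and Atf3, did not overlap between the groups, where 66% of all genes did not. Fos, at 0.44 (SE 0.31), and Dusp1, at 0.12 (SE 0.36), lay within the spread between mice. Without the old KO mouse of 158 days, Fos was at 0.89, Fosb at 2.46 and Jun at 1.13. Leaving out the sick KD mouse of 78 days gave Jun at 1.11, Ier2 at 0.51 and Zfp36 at 0.56. Without the old KO mouse of 101 days, in contrast, Fos was at -0.21, Fosb at 0.05, Jun at 0.39, Dusp1 at -0.47 and Jund at 0.73. The values of Fos, Fosb and Jun thus rested on which old KO mouse was used.

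Sick KD and young KD mice differ in disease and age at 1 genotype. Jund was lower in sick KD, its log2 fold change being -1.20 (SE 0.25, edgeR adjusted p = 0.0226), and the other 9 genes did not pass, where 20.9% of all genes did. Jund passed with each mouse left out in turn, with log2 fold changes from -1.55 to -0.92. Egr1 had -1.24 (SE 0.36, edgeR adjusted p = 0.0551), and passed when all 8 libraries were fitted together (adjusted p = 0.0386). Jund, Egr1 and Atf3 did not overlap between the groups, 3 of the 10 genes, where 66.7% of all genes did not. For Fos, Jun and Dusp1 the answer rested on which young KD mouse was used. Without the young KD mouse of 42 days, which had low levels, Fos was at -1.13 and Jun at -1.53. Without that of 39 days Fos was at 1.20, Jun at 0.39 and Dusp1 at 2.01.

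**Figure D5:**
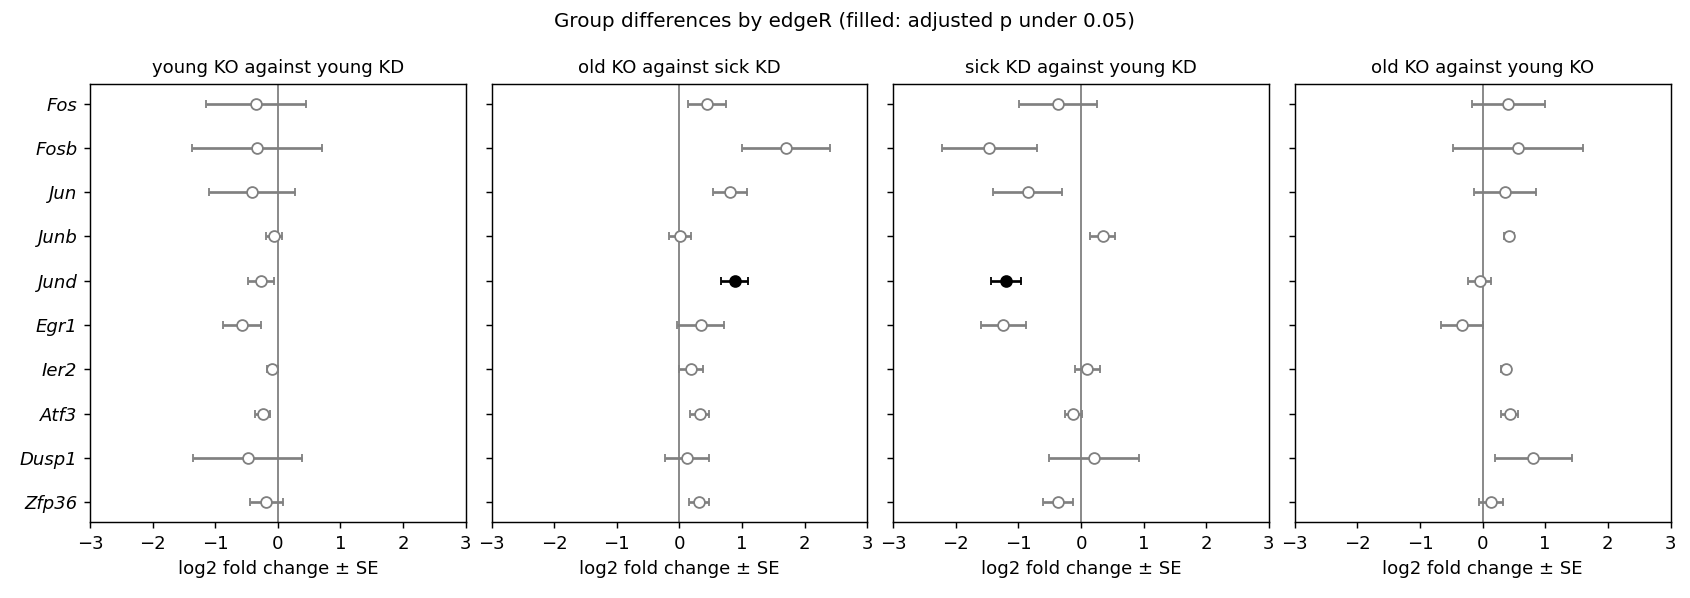
log2 fold change with its SE from edgeR (horizontal axes) for the 10 genes (vertical axis) in 4 comparisons of groups of 2 mice, filled where the adjusted p is under 0.05. Only Jund is filled, at 0.88 between old KO and sick KD and at -1.20 between sick KD and young KD. The widest bars are those of Fos, Fosb, Jun and Dusp1, except between old KO and sick KD, where only Fosb has a wider bar than Egr1 (SE 0.38).

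Several other features of the libraries moved with the Jund difference. All 11 erythroid markers were lower in sick KD than in both old KO and young KD, with summed levels of 901 and 1326 CPM against 2032 to 6290 CPM in the other 6 mice. The 6 transcripts without a poly(A) tail that were tested were all higher in sick KD, such as Rn7sk at 19500 and 28000 CPM against 7869 to 10010 CPM, and the share of counts on mitochondrially encoded genes was 1.42% and 1.16% against 0.464% to 0.787%. Neutrophil markers summed to 10740 and 8635 CPM in sick KD against 4856 to 6240 CPM in the other 6 mice. Of the single neutrophil markers, 5 of 15 were higher and 1 lower in sick KD than in old KO. Against young KD, 5 of 16 were higher and 1 lower in sick KD. Of the T and NK cell markers, 6 of 10 were lower in sick KD than in old KO and 4 of 10 than in young KD, and of the stroma and endothelium markers 3 of 9 and 7 of 10 were. Of the B cell markers, 2 of 8 were lower in sick KD than in old KO and 8 of 8 than in young KD. Of the eosinophil, basophil and mast cell markers, 6 of 8 were lower in sick KD than in old KO. None of these was lower in sick KD than in young KD, and 1 was higher. Of 15 monocyte and macrophage markers, 5 were lower in sick KD than in old KO, and 2 were higher and 5 lower than in young KD. Of all genes, 18.1% passed the edgeR threshold in either direction between old KO and sick KD, and 20.9% between sick KD and young KD. The part of these cell types and library features in the Jund result was not tested. Jund kept its direction and its call between these groups without the mitochondrial, histone and small RNA genes, and after removal of trends in GC content and transcript length. Between old KO and sick KD its log2 fold change was 0.87 and 0.74 in these settings, against 0.88. Between sick KD and young KD it stayed between -1.21 and -1.14 under the alternatives that kept every mouse. Neither setting tests the part of the features above.

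Old and young KO mice, both without disease, differ in age alone by their labels. None of the 10 genes passed after adjustment in edgeR, where 0.929% of all genes did, and 3 were under 0.05 before it, where 8.86% of all genes were. The log2 fold change was 0.42 for Junb (SE 0.08, unadjusted p = 0.00245, edgeR adjusted p = 0.126), 0.37 for Ier2 (SE 0.08, adjusted p = 0.155) and 0.43 for Atf3 (SE 0.13, adjusted p = 0.365). These 3 genes did not overlap between the groups, where 37.7% of all genes did not, and all 3 were higher in old KO. With DESeq2, Junb (adjusted p = 0.0028) and Ier2 (adjusted p = 0.0372) passed. Fos, Fosb, Jun and Dusp1 had positive log2 fold changes from 0.36 to 0.81 with SEs from 0.50 to 1.04.

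An interaction term over the 8 libraries tested whether KO and KD differed otherwise in the young mice than in the old KO and sick KD mice. None of the 10 genes passed, where 7.43% of all genes did, and 2 were under 0.05 before adjustment, where 27.7% of all genes were. These were Jund, at a log2 value of 1.15 (SE 0.35, edgeR adjusted p = 0.0821), and Atf3 at 0.55 (SE 0.18, edgeR adjusted p = 0.0968). DESeq2 called Jund (adjusted p = 0.00615). The median of the 10 values was 0.69 against 0.00 for all genes, but the 10 genes were measured in the same 8 mice and are not independent. With 1 mouse left out at a time the sign turned for Fos (-0.80 to 1.87), Jun (-0.04 to 2.16), Dusp1 (-1.21 to 1.82) and Junb (-0.15 to 0.31).

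The wider families of these genes were read from lists of known members, whose counts are a description, and nothing is particular to a list on this basis. Between young KO and young KD, none of the 122 listed genes tested passed after adjustment in edgeR, where 0.0404% of all genes did. Before adjustment 7 were under 0.05, where 2.66% of all genes were. Of 17 other AP-1, ATF and small Maf genes tested between old KO and sick KD, 6 were higher and 1 lower in old KO, or 41.2% against the 18.1% of all genes. The largest changes were in Batf3 (log2 fold change 1.29), Batf2 (1.25) and Mafk (1.15), which encodes a small Maf protein without an activation domain, and Atf7 (-0.94) was the lower gene. Between sick KD and young KD, where 20.9% of all genes passed, 4 of 17 were higher, among them Jdp2 (0.82), an AP-1 repressor, and Atf7 (0.81), and 3 were lower, Mafk (-1.04), Atf4 (-0.68) and Fosl2 (-0.49). Fosl2, another Fos paralog, was at 161 and 169.5 CPM in young KD, 157 and 168 CPM in young KO, 199 and 213 CPM in old KO and 125 and 113 CPM in sick KD. Its mice lay close together in each of the 4 groups, and the interaction passed for Fosl2 (log2 value 0.82, edgeR adjusted p = 0.0176), Mafk (1.23) and Atf7 (-0.83). Both comparisons use the same sick KD mice.

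Of 34 other immediate early and primary response genes, 5 were higher and none lower in old KO than in sick KD. This was 14.7% of the list, below the 18.1% of all genes, with the largest changes in Ppp1r15a (1.41), which encodes a phosphatase subunit of the stress response, Sik1 (0.93) and the antiproliferative gene Btg2 (0.85). Between sick KD and young KD, 8 of 34 were lower, led by Egr2 (-1.92), Ccn2 (-1.62) and Plk2 (-1.43), and 2 were higher, Myc (0.71) and Klf4 (0.59), together 29.4% of the list against 20.9% of all genes. Among 9 dual-specificity phosphatases other than Dusp1, Dusp8 (2.18) and Dusp5 (1.77) were higher in old KO than in sick KD, and Dusp5 (-2.53), Dusp2 (-1.82) and Dusp10 (-1.07) were lower in sick KD than in young KD. Dusp5, a nuclear phosphatase of ERK, was at 19.6 and 18.5 CPM in young KD, 15.8 and 13.5 CPM in young KO, 10.5 and 12.1 CPM in old KO and 4.23 and 2.34 CPM in sick KD. These were 22.2% and 33.3% of the list, against 18.1% and 20.9% of all genes. Unlike Dusp1, Dusp5 differed little within the groups of young mice, and both sick KD mice were below all others. Dusp2 (-1.37) was the 1 phosphatase that passed between old KO and young KO, where it was lower in old KO and 0.929% of all genes passed. The 8 B cell markers were lower in sick KD than in young KD and in old KO than in young KO, and their part in these changes was not tested.

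Of 23 upstream kinases and factors, 3 were higher in old KO than in sick KD, Nfkb1 (0.73), Srf (0.58), which encodes the serum response factor that binds the CArG box, and Mapk9 (0.40), and 2 were lower, Rps6ka3 (-1.18) and Mrtfb (-0.80). Between sick KD and young KD, 2 were higher, Rps6ka3 (0.97) and Mrtfb (0.60), and 3 were lower, Nfkb1 (-0.54), Elk4 (-0.41) and Mapk9 (-0.41). In each comparison this was 21.7% of the list, near the 18.1% and 20.9% of all genes. Of 11 AP-1 repressors and cofactors, none was higher and 4 were lower in old KO than in sick KD, among them the acetyltransferase genes Ep300 (-0.78) and Crebbp (-0.68). Against young KD, 5 were higher in sick KD, among them Jdp2 (0.82), which stands in both lists, and Ep300 (0.70). These were 36.4% and 45.5% of the list, against the same 18.1% and 20.9% of all genes.

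Zfp36 directs decay of mRNAs through AU-rich elements in their 3′ UTRs. In the annotation, 9 of the 10 genes hold at least 1 copy of ATTTA, the core of the AU-rich element, against 66.9% of 12779 tested protein-coding genes, and 5 hold 3 or more against 34.9%. Fos, Jun and Dusp1 hold 4 copies each, Zfp36 and Atf3 3, and Ier2 none. Of the decay partners and targets of Zfp36, 2 of 12 tested were lower in old KO than in sick KD and none higher, the target Tnf (-1.82) and Cnot1 (-0.68), a subunit of the deadenylase complex. The same 2 genes were higher in sick KD than in young KD, at 1.87 and 0.53. These were 16.7% of 12 and 15.4% of 13 genes tested, below the 18.1% and 20.9% of all genes. Tnf was at 26.5 and 23.4 CPM in sick KD and between 5.53 and 8.34 CPM in the other 6 mice, without overlap. Zfp36 itself overlapped between sick KD and the young KD mice. It was lower in both sick KD mice, at 87.6 and 63.9 CPM, than in both old KO mice, at 96.2 and 92.2 CPM. There 66% of all genes did not overlap, and Zfp36 did not pass (edgeR adjusted p = 0.208).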

How the data were processed

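RNA-seq of total BM from 8 mice was used. Per the study's methods and the submitters' processing notes, the authors prepared stranded mRNA libraries, aligned reads to mm10 (GRCm38) with TopHat2 2.0.10, processed them with SAMtools and deposited raw HTSeq counts per Ensembl gene, without normalization. The annotation release and the strand setting are not given in the sources used here. HTSeq's tallies of reads on no gene, 26.9% to 42.0% of the reads that were on a gene or on none, were left out of library sizes and tests.

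Symbols and positions were taken from GENCODE M21 on GRCm38, which named 40340 of 41214 identifiers, and promoters from RefSeq on GRCm38.p6. Genes that passed filterByExpr by group were tested in R 4.3.3 with edgeR 4.0.16 (TMM, quasi-likelihood test, Benjamini-Hochberg adjustment over all genes, threshold 0.05), each pair of groups in its own fit and the interaction over 8 libraries. Standard errors were derived from the log2 fold change and the F statistic of the test, as the size of the former over the root of the latter. Log2 levels used a pseudocount of 1. Depth leaves Fosb and Egr1, with under 100 counts in most libraries, measured least precisely, and for the others the spread between 2 mice limits precision more than counting does. Nothing in the labels says that the mice of a group come from separate litters or days.

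The 10 genes and the gene lists were chosen with earlier results of these data known. From each list the text names genes past the threshold, at most 3 per direction and comparison by size of change, and the 5 nearest profiles. Some genes that this rule selects are not reported here. The alternatives were DESeq2 1.42.0, RLE size factors, every gene with at least 1 count, leaving out the 50 genes with most counts or mitochondrial, histone and small RNA genes, removal of trends in GC content and transcript length (loess span 0.3), a joint fit of 8 libraries, and leaving out each mouse in turn. The scripts were tested on simulated data with known changes. The processing notes also name DESeq, whose results were not used.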

Additional observations from a re-analysis of the deposited data

Results flagged for a closer look

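The KO-to-KD difference of Atf3 had opposite directions in young mice and in old or sick mice. Both young KO mice, at 12.1 and 14.0 CPM, were below both young KD mice, at 15.0 and 15.8 CPM, while both old KO mice, at 16.7 and 18.6 CPM, were above both sick KD mice, at 13.7 and 14.6 CPM. Of all genes, 27% did not overlap between the young groups and 66% did not between old KO and sick KD. How many of all genes did so in opposite directions was not counted. The change of the difference was 0.55 on the log2 scale (standard error 0.18) and did not pass edgeR's adjusted threshold (adjusted p = 0.0968 from the interaction term). With each mouse left out in turn the value ranged from 0.45 to 0.66, and the adjusted p from 0.0983 to 0.29. Groups of 2 mice are too small for a test of single outlying samples.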

How the results depend on the processing

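The call of Jund between sick KD and young KD held under each of the alternatives and with each mouse left out. Between old KO and sick KD it was lost only without the sick KD mouse of 187 days. The number of the 10 genes called rose from 1 between old KO and sick KD to 2 with DESeq2 and 4 with every gene of at least 1 count tested, from 1 between sick KD and young KD to 4 with every gene and 2 in the joint fit of 8 libraries, from 0 between old KO and young KO to 2 with DESeq2 and 2 with every gene, and from 0 for the interaction to 1 with DESeq2 and 6 with every gene. The cause was not tested. Between old KO and sick KD, 1437 of all 14470 genes tested were higher and 1189 lower. These became 1629 and 1430 with DESeq2, and 2476 and 1849 of 21700 with every gene. Between sick KD and young KD, 1385 of 14656 were higher and 1678 lower. These became 1967 and 2435 of 21807 with every gene, and 1917 and 2174 of 15102 in the joint fit. Over all genes, 3 were higher and 3 lower in young KO than in young KD, against 55 and 64 with every gene, 48 higher and 90 lower in old KO than in young KO, against 170 and 213 with DESeq2, 414 and 382 with every gene and 24 and 75 with GC content and length trends removed, and 653 higher and 469 lower in the interaction, against 1151 and 800 with DESeq2 and 1777 and 1142 with every gene. With GC content and length trends removed, Junb had -0.13 between old KO and sick KD and -0.05 for the interaction, reversed from 0.01 and 0.07. The other log2 fold changes kept their sign under these alternatives. With 1 mouse left out, the lone mouse is assumed to vary like the other groups. Which of the 10 genes were called then varied between old KO and sick KD, between sick KD and young KD and for the interaction. None was called in the other comparisons. Between young KO and young KD, values that changed sign ranged from -1.44 to 1.23 for Fos, -2.42 to 1.45 for Fosb, -1.37 to 0.84 for Jun, -1.70 to 1.33 for Dusp1, -0.51 to 0.18 for Zfp36, -0.24 to 0.14 for Junb and -0.17 to 0.01 for Ier2. Between old KO and sick KD, values that changed sign ranged from -0.21 to 0.27 for Junb, -0.09 to 0.51 for Ier2, -0.47 to 0.57 for Dusp1, -0.21 to 0.89 for Fos and -0.09 to 0.66 for Egr1. Between sick KD and young KD, values that changed sign ranged from -0.23 to 0.37 for Ier2, -0.59 to 2.01 for Dusp1, -1.13 to 1.20 for Fos, -2.25 to 0.30 for Fosb and -1.53 to 0.39 for Jun. Between old KO and young KO, values that changed sign ranged from -0.27 to 0.20 for Jund, -0.22 to 1.5 for Fos, -1.09 to 2.66 for Fosb, -0.22 to 1.32 for Jun and -0.14 to 0.47 for Zfp36. For the interaction, values that changed sign ranged from -0.15 to 0.31 for Junb, 0.00 to 0.58 for Ier2, -1.21 to 1.82 for Dusp1, -0.80 to 1.87 for Fos and -0.04 to 2.16 for Jun. No paired analysis was possible because each mouse has its own number in the labels, so that groups share none.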

Other observations

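Of the heat shock genes, Hspa1a and Hspa1b differed between the same mice as Fos. Hspa1a and Hspa1b, which encode nearly identical inducible HSP70 proteins and whose reads can be split between them, were the 2 of 13 tested heat shock and chaperone genes that were over 2-fold apart in each young group. Of all genes, 0.927% were in young KD and 0.94% in young KO. Hspa1a was at 12.2 and 0.724 CPM in the young KD mice of 39 and 42 days, 6.82 and 1.93 CPM in the young KO mice of 44 and 48 days, 5.95 and 3.31 CPM in the old KO mice of 101 and 158 days, and 2.13 and 1.41 CPM in the sick KD mice of 78 and 187 days. The younger mouse was the higher in each of the 4 groups. Between old KO and sick KD, 3 of 13 passed, where 18.1% of all genes did, Hspa1a with 1.39 on the log2 scale (edgeR adjusted p = 0.0453), Hspa1b with 1.34 and the mitochondrial chaperone gene Hspd1 with 0.55, and between sick KD and young KD Hspd1 alone passed, where 20.9% of all genes did, and was lower (-0.51).

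Among 36 other immediate early and primary response genes, 3 were over 2-fold higher in the younger mouse in each young group, Rgs1, Ppp1r15a and Trib1. Of all 15102 genes, 66 were in young KD and 47 in young KO. Rgs1 and Ppp1r15a are named here after their values within groups were seen. Rgs1, which encodes a regulator of G protein signaling, was at 10.9 and 1.72 CPM in young KD, 5.94 and 1.98 CPM in young KO, 7.68 and 2.89 CPM in old KO and 2.60 and 2.54 CPM in sick KD. Ppp1r15a, in contrast, was higher in the older of the old KO mice, at 82.5 against 52.8 CPM. None of the 18 other AP-1, ATF and small Maf genes was over 2-fold apart between the mice of any of the 4 groups.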
